A study of Caenorhabditis elegans with 3 samples.

Results

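Transthyretin-related genes carry the name ttr in *Caenorhabditis elegans*, and the members described here are all genes of the deposited tables whose name begins with ttr-. There were 42 of them among the 10168 genes listed in either of the 2 tables, and all 42 were listed in both. Polyadenylated RNA of whole young adult animals had been sequenced in 3 libraries, each from animals at 2.5 days given RNAi by feeding. All 3 groups were of a fem-1 strain, used per the labels as sterile animals to set beside dcr-1 loss of function, which induces sterility. The groups were dcr-1 RNAi (1 library), drsh-1 RNAi (1 library) and mock (1 library). The first was set against mock to ask how Dicer bears on RNA levels, with the second as a further control. dcr-1 encodes Dicer, the RNase III enzyme that processes microRNA precursors and long double-stranded RNA, and drsh-1 encodes Drosha, the RNase III enzyme of the nucleus that frees these precursors from primary transcripts. With 1 library per group, differences between groups stand without replicates, and neither a test nor a spread between samples could be given.

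Transthyretin of vertebrates is a blood protein that carries thyroid hormone and retinol-binding protein. The nematode family is named for a distant similarity to it and is one of the large gene families of nematodes, whose members are mostly small secreted proteins. Few of them have a described role. TTR-52 is secreted by the intestine and bridges phosphatidylserine on dying cells to the engulfment receptor CED-1. TTR-11 also binds phosphatidylserine and acts in axon regeneration, and TTR-33 protects dopaminergic neurons from oxidative stress.

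Of 58 ttr genes in the WBcel235 annotation, 16 were in neither table under their ttr names, ttr-52 and ttr-11 among them. The others of the 16 were ttr-3, ttr-9, ttr-12, ttr-13, ttr-19, ttr-20, ttr-22, ttr-28, ttr-38, ttr-55, ttr-56, ttr-57, ttr-58 and ttr-59. No value under 2 FPKM (fragments per kilobase of transcript, normalized to library size) was found in either table, so a gene under that level in one library would be missing from that library's table. Of the members with a role named above, only ttr-33 could therefore be followed. The mock value of each of the 42 members was the same in both tables.

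The targeted genes were checked first. dcr-1 was at 23.8 FPKM in dcr-1 RNAi, 33.2 FPKM in drsh-1 RNAi and 36.8 FPKM in mock. drsh-1 was at 20.9 FPKM in drsh-1 RNAi, against 32.0 FPKM in mock in the same table. The mock value of drsh-1 differs between the tables, being 26.2 FPKM in the dcr-1 table, where dcr-1 RNAi gave it 33.2 FPKM. Each targeted gene was thus below mock in the library of its own RNAi, but by less than 2-fold. On a log2 scale of (FPKM + 1), dcr-1 stood at -0.61 and drsh-1 at -0.59 relative to mock of the table named for it. The depth of the libraries is unknown, since the tables give no read counts.

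The listed ttr genes spanned more than 2 orders of magnitude in level. In mock the highest was ttr-51 at 1032 FPKM, the 67th highest of the 9631 genes in the dcr-1 table, and the lowest was ttr-16 at 3.43 FPKM. The median of the 42 genes was 27.9 FPKM in dcr-1 RNAi, 22.5 FPKM in drsh-1 RNAi and 27.4 FPKM in mock, beside medians over all listed genes of 27.5, 25.6 and 27.3 FPKM in the same libraries, the last from the dcr-1 table. A typical ttr gene was thus at the level of a typical listed gene. Together the 42 genes summed to 5761 FPKM in dcr-1 RNAi, 4530 FPKM in drsh-1 RNAi and 4454 FPKM in mock. These sums made up 0.703% of all listed FPKM in the dcr-1 RNAi library, against 0.666% in mock over the same table, and 0.638% in the drsh-1 RNAi library, against 0.660% in mock. ttr-15, ttr-51 and ttr-45 were the highest 3 in every library and held 57.6% of the ttr sum in dcr-1 RNAi, 51.2% in drsh-1 RNAi and 50.2% in mock.

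**Figure D1:**
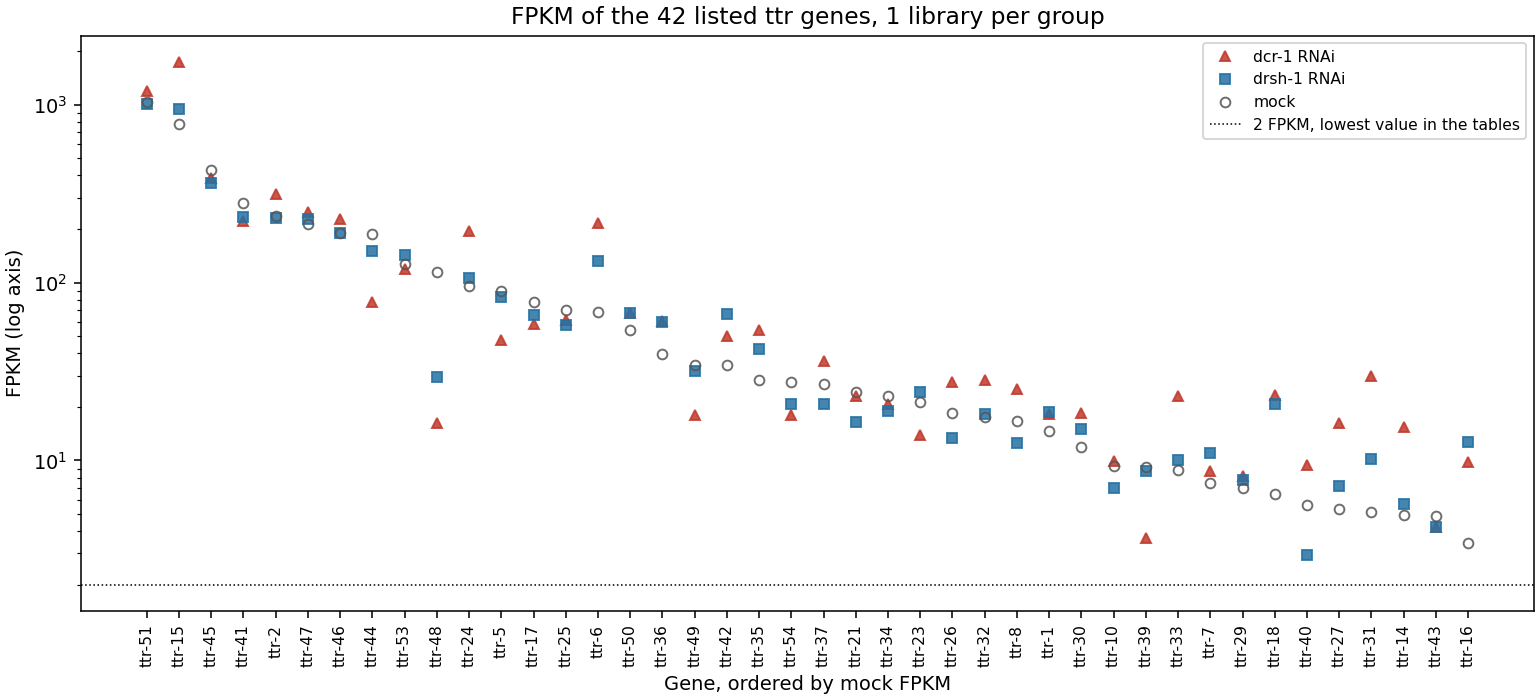
FPKM of each of the 42 listed ttr genes on a log axis, ordered along the horizontal axis by mock FPKM, with 1 point per library (dcr-1 RNAi, drsh-1 RNAi, mock) and a dotted line at the 2 FPKM limit of the tables. The points of the 3 libraries lie close together for most genes above 100 FPKM in mock, with ttr-48 and ttr-44 below mock in dcr-1 RNAi, and spread more among the genes under 10 FPKM in mock.

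In dcr-1 RNAi, 9 ttr genes were at least 2-fold higher than mock and 3 were at least 2-fold lower. Ratios are given as log2 of (FPKM + 1) in the first group over (FPKM + 1) in the second, a scale on which ratios of genes with low values come out too small. Among all 9631 genes of the table, 6.71% reached 2-fold on the higher side and 6.53% on the lower side. The share of ttr genes on the higher side was 21.4%, above the background, and that on the lower side was 7.14%, near it. Past 1.5-fold, 13 members were higher and 6 lower, beside 16.0% and 13.9% of all genes. The median log2 ratio of the 42 genes was 0.27, against 0.06 over all genes, and 27 of the 42 had a ratio above 0, beside 55.5% of all genes.

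In drsh-1 RNAi, 2 ttr genes were at least 2-fold higher than mock and 1 was at least 2-fold lower. Of all 9996 genes in that table, 1.91% were higher and 1.59% lower by that much. Past 1.5-fold, 6 were higher and 2 lower, beside backgrounds of 5.45% and 5.19%. The median log2 ratio of the ttr genes was 0.03, against 0.00 over all genes, with 21 members above 0 and 21 below, beside 50.4% of all genes above 0. Both comparisons use the same mock library, so their ratios are not independent of each other.

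**Figure D2:**
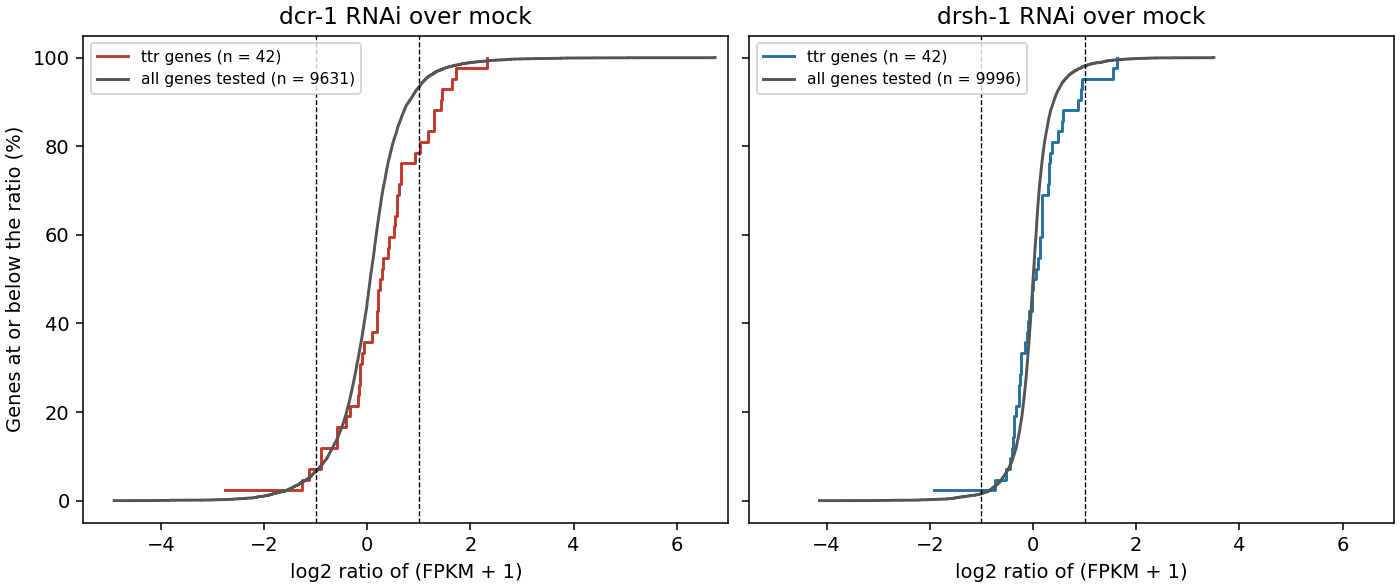
Cumulative share of genes (vertical axis, %) at or below each log2 ratio (horizontal axis), for the 42 ttr genes and for all genes tested, in dcr-1 RNAi over mock (left) and drsh-1 RNAi over mock (right), with dashed lines at 2-fold. On the left the ttr curve lies to the right of the curve for all genes over most of its upper part, with medians of 0.27 and 0.06. On the right the medians are 0.03 and 0.00.

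ttr-31 had the highest ratio of the family in dcr-1 RNAi. It was at 29.6 FPKM in dcr-1 RNAi, 10.2 FPKM in drsh-1 RNAi and 5.15 FPKM in mock, with log2 ratios to mock of 2.32 and 0.87. It ranked 73rd from the top of the 9631 genes in dcr-1 RNAi. ttr-6 followed the same order of libraries at a higher level, with 216 FPKM in dcr-1 RNAi, 133 FPKM in drsh-1 RNAi and 68.5 FPKM in mock (log2 ratios 1.64 and 0.95). For both genes drsh-1 RNAi stood between dcr-1 RNAi and mock, just short of 2-fold.

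ttr-18 and ttr-16 were the members at least 2-fold higher in both RNAi libraries. ttr-18 was at 23.4 FPKM in dcr-1 RNAi, 20.8 FPKM in drsh-1 RNAi and 6.44 FPKM in mock, with log2 ratios of 1.71 and 1.55. ttr-16 was at 9.81 FPKM in dcr-1 RNAi, 12.7 FPKM in drsh-1 RNAi and 3.43 FPKM in mock (1.29 and 1.63). Here the dcr-1 and drsh-1 libraries were near each other and mock was the library that stood apart. In drsh-1 RNAi these 2 genes ranked 56th and 51st from the top of 9996.

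The other members at least 2-fold higher in dcr-1 RNAi were ttr-14, ttr-15, ttr-24, ttr-27 and ttr-33, each under 1.5-fold from mock in drsh-1 RNAi. ttr-33, the gene that protects dopaminergic neurons, was at 23.03 FPKM in dcr-1 RNAi, 10.1 FPKM in drsh-1 RNAi and 8.85 FPKM in mock (log2 ratios 1.29 and 0.17). ttr-14 was at 15.4, 5.72 and 4.95 FPKM in dcr-1 RNAi, drsh-1 RNAi and mock (1.46 and 0.17). ttr-27 was at 16.2, 7.20 and 5.35 FPKM in the same libraries (1.44 and 0.37). All 3 were low in mock, whereas the other members of this group were abundant. ttr-15 was at 1744 FPKM in dcr-1 RNAi, 944 FPKM in drsh-1 RNAi and 775 FPKM in mock (1.17 and 0.28). It took the place of ttr-51 as the most abundant member in dcr-1 RNAi. ttr-24 was at 195 FPKM in dcr-1 RNAi, 106 FPKM in drsh-1 RNAi and 96.1 FPKM in mock (1.02 and 0.14), which is at the 2-fold limit.

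ttr-48 had the lowest ratio of the family in both RNAi libraries. It was at 16.1 FPKM in dcr-1 RNAi, 29.4 FPKM in drsh-1 RNAi and 114 FPKM in mock, with log2 ratios of -2.75 and -1.92. These were the 25th lowest of 9631 genes in dcr-1 RNAi and the 28th lowest of 9996 in drsh-1 RNAi. Among the 42 members, ttr-48 was thus the gene farthest from mock in each RNAi library. ttr-44 was at 77.3 FPKM in dcr-1 RNAi, 149.95 FPKM in drsh-1 RNAi and 188 FPKM in mock (-1.27 and -0.32). ttr-39 was at 3.66 FPKM in dcr-1 RNAi, 8.68 FPKM in drsh-1 RNAi and 9.18 FPKM in mock (-1.13 and -0.07). For ttr-44 and ttr-39 the drsh-1 library was thus closer to mock than to dcr-1 RNAi.

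The remaining 30 members were under 2-fold from mock in both RNAi libraries, and 22 of these were under 1.5-fold in both. Nearest to the lower limit in dcr-1 RNAi were ttr-49 (18.0 FPKM in dcr-1 RNAi, 31.7 FPKM in drsh-1 RNAi and 34.5 FPKM in mock, log2 ratios -0.90 and -0.12) and ttr-5 (47.7, 83.3 and 89.0 FPKM, -0.89 and -0.10). Nearest to the upper limit was ttr-35, at 54.3, 42.2 and 28.3 FPKM in dcr-1 RNAi, drsh-1 RNAi and mock (0.92 and 0.56). In drsh-1 RNAi, ttr-42 was at 66.1 FPKM against 34.3 FPKM in mock (0.93), with 49.8 FPKM in dcr-1 RNAi (0.52). The lower end in drsh-1 RNAi after ttr-48 was made up of ttr-40 (-0.74), ttr-21 (-0.53), ttr-26 (-0.45) and ttr-54 (-0.41). Among the 5 highest members in mock, all but ttr-15 were under 1.5-fold from mock in both RNAi libraries. ttr-51 was at 1189, 1013 and 1032 FPKM in dcr-1 RNAi, drsh-1 RNAi and mock, ttr-45 at 387, 364 and 427 FPKM, ttr-41 at 220.5, 234.9 and 279.6 FPKM, and ttr-2 at 313, 231 and 235.05 FPKM. Of the lowest 5 in mock, ttr-43 was the one close to mock throughout, at 4.24, 4.25 and 4.84 FPKM.

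**Figure D3:**
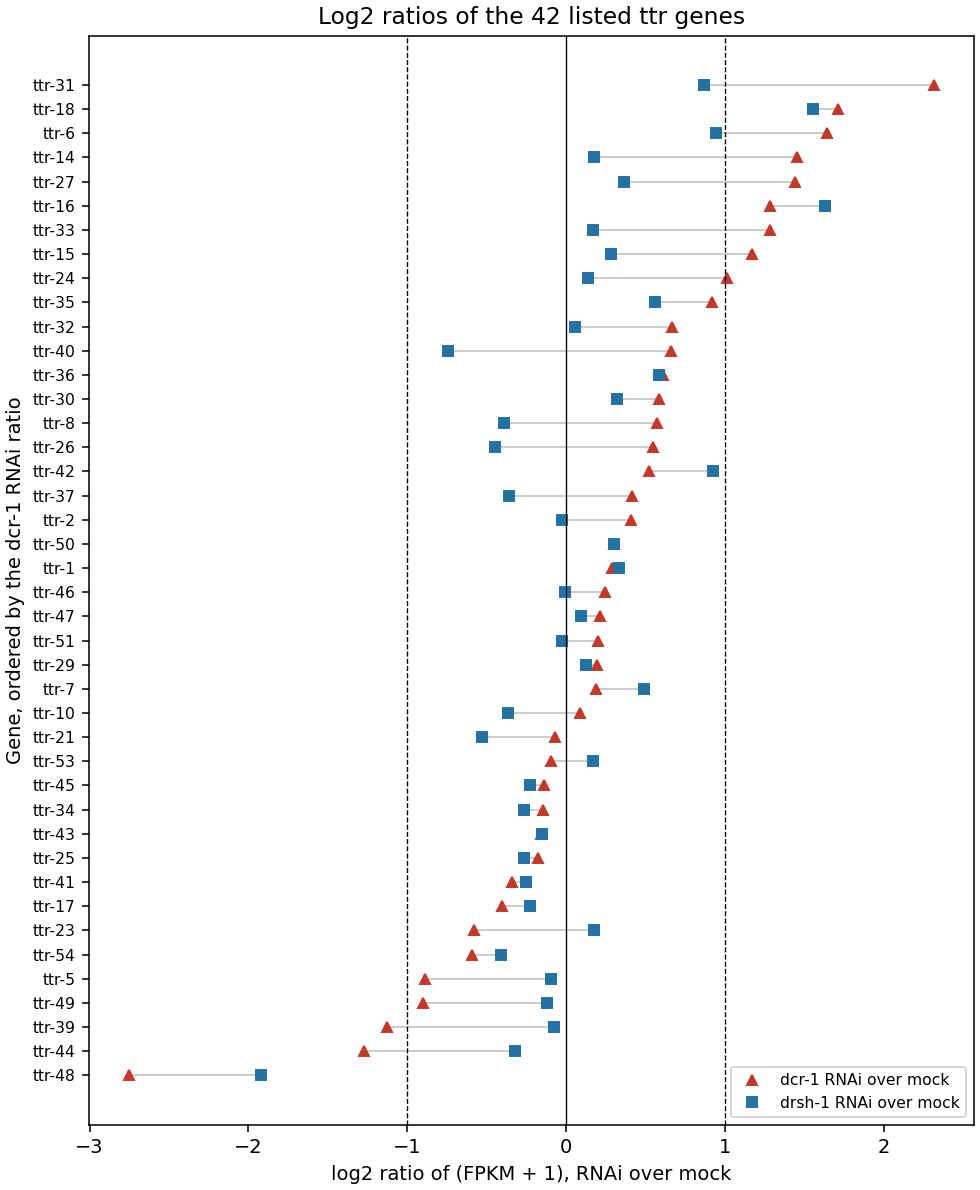
Log2 ratio of (FPKM + 1) over mock for each of the 42 ttr genes, with triangles for dcr-1 RNAi and squares for drsh-1 RNAi, ordered by the dcr-1 RNAi ratio, and dashed lines at 2-fold. In dcr-1 RNAi 9 genes lie at or above the upper line and 3 at or below the lower one, and in drsh-1 RNAi 2 and 1 do. ttr-48 is lowest in both, at -2.75 and -1.92.

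Set directly against drsh-1 RNAi, dcr-1 RNAi had 5 ttr genes higher by at least 2-fold and 1 lower, beside 4.29% and 5.78% of the 9043 genes whose mock value was the same in both tables. The highest log2 ratios of dcr-1 RNAi over drsh-1 RNAi were those of ttr-31 (1.45), ttr-40 (1.41), ttr-14 (1.28), ttr-33 (1.12) and ttr-27 (1.07). ttr-40 differed from the rest of these in that the RNAi libraries lay on either side of mock, with 9.43 FPKM in dcr-1 RNAi, 2.93 FPKM in drsh-1 RNAi and 5.59 FPKM in mock. The lowest were ttr-39 (-1.05), ttr-44 (-0.95), ttr-48 (-0.83), ttr-5 (-0.79) and ttr-49 (-0.78). The median over the 42 genes was 0.115, against 0.06 over all genes. With a pseudocount of 5 FPKM in place of 1, 1 gene was at least 2-fold higher and 0 were lower, beside 2.76% and 3.49% of all genes. With one of 0.1 FPKM the counts were 7 and 1, beside 5.24% and 6.58%.

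The members at least 2-fold higher in dcr-1 RNAi were mostly low in mock. In level classes chosen after the values were seen, 6 of the 12 ttr genes under 10 FPKM in mock were at least 2-fold higher in dcr-1 RNAi and 1 was at least 2-fold lower. Of all 2534 genes at that mock level, 11.5% were higher and 2.60% lower by that much. Between 10 and 100 FPKM, 2 of 20 ttr genes were at least 2-fold higher and 0 lower, beside 5.05% and 8.59% of all genes at that level. At 100 FPKM or more it was 1 of 10 higher and 2 lower, beside 4.74% and 5.31%. The mock value enters both the level class and the ratio. A gene under 5 FPKM in mock, as ttr-14, ttr-16 and ttr-43 were, could not be listed as 2-fold lower on the (FPKM + 1) scale, since it would pass under the 2 FPKM limit. A gene under 2 FPKM in mock could not be listed at all, so rises from below that level are not seen. The part of each of these in the counts was not tested.

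All 42 members were matched by name to the WBcel235 annotation, which was used for neighbours, transcripts and overlaps only, since the build of the tables is not given in the sources used here. The ttr genes are short, with annotated exons of 460 to 1415 bases per gene and a median of 572, and 9 of the 42 have more than 1 annotated transcript, ttr-24, ttr-39 and ttr-44 among the members named above as at least 2-fold apart. Several ttr genes are direct neighbours among protein-coding genes, with 9 adjacent pairs in which both were listed. In dcr-1 RNAi, 5 of these 9 pairs had ratios of opposite sign, where 27 of the 42 members were above 0 and 15 below. How often members that are not neighbours differ in sign was not counted. ttr-16 had a log2 ratio of 1.29 there and its neighbour ttr-17 one of -0.41. ttr-24 had 1.02, ttr-25 next to it -0.17, and ttr-26 on the far side of ttr-25 had 0.55. For ttr-40 and ttr-49 the values were 0.66 and -0.90. The pair ttr-36 and ttr-35 was above mock in both RNAi libraries, with 0.61 and 0.92 in dcr-1 RNAi and 0.59 and 0.56 in drsh-1 RNAi.

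Exons of 13 members overlap exons of another annotated gene, in 12 cases on the opposite strand, and the labels do not say whether strand was used in counting. Of the 12 members at least 2-fold from mock, 5 are among them, namely ttr-14, ttr-16, ttr-33, ttr-39 and ttr-44. ttr-16 shares 40.7% of its exon bases with lin-3, which encodes an epidermal growth factor ligand. lin-3 was at 22.3 FPKM in dcr-1 RNAi against 30.9 FPKM in mock, and at 40.1 FPKM in drsh-1 RNAi against 41.2 FPKM in mock. Its log2 ratios were -0.45 and -0.04, the latter close to mock, and its mock value differs between the tables. The part of lin-3 reads in the ttr-16 values was not tested. ttr-39 shares 10.4% with ndc-80, which encodes a kinetochore protein and was at 123 FPKM in dcr-1 RNAi, 75.02 FPKM in drsh-1 RNAi and 73.3 FPKM in mock. ttr-44 shares 167 of its 668 exon bases with R11G10.3, ttr-14 6.4% with vap-2, and ttr-33 7.1% with txt-5 on its own strand. None of these 3 partners was listed under these names, and whether they were listed under other names was not checked. Among the 29 members with no such overlap, 6 were at least 2-fold higher and 1 was at least 2-fold lower in dcr-1 RNAi. Beside these stood 6.69% and 6.52% of all genes. In drsh-1 RNAi 1 of the 29 was higher and 1 lower, beside 1.9% and 1.59%. Values of overlapping members are uncertain to this extent, and reads shared between similar ttr genes were not analysed here.

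TTR-52 works with genes that recognise and engulf dying cells, and TTR-33 has been studied together with that pathway. All 19 genes of a list of such factors were listed in both tables. In dcr-1 RNAi 1 of the 19 was at least 2-fold higher and 0 were lower, and in drsh-1 RNAi 0 were apart in either direction. These shares are not above those of all genes, 6.71% and 6.53% in dcr-1 RNAi, with 1.91% and 1.59% in drsh-1 RNAi. The gene counted was nrf-5, whose lipid-binding product acts with TTR-52 in the transfer of phosphatidylserine, at 22.6 FPKM in dcr-1 RNAi, 7.99 FPKM in drsh-1 RNAi and 7.36 FPKM in mock (log2 ratios 1.499 and 0.11). The receptor gene ced-1 was at 34.9, 36.8 and 38.7 FPKM in dcr-1 RNAi, drsh-1 RNAi and mock. The transporter gene ced-7 had ratios of 0.40 and 0.01, from mock values that differ between the tables, and ced-10, a Rac GTPase gene, was the lowest in dcr-1 RNAi (-0.93). The list's median was 0.14 in dcr-1 RNAi, where that of all genes was 0.06, and 0.00 in drsh-1 RNAi, where that of all genes was 0.00. Of 4 core cell death genes, 0 were 2-fold apart in either library.

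**Figure D4:**
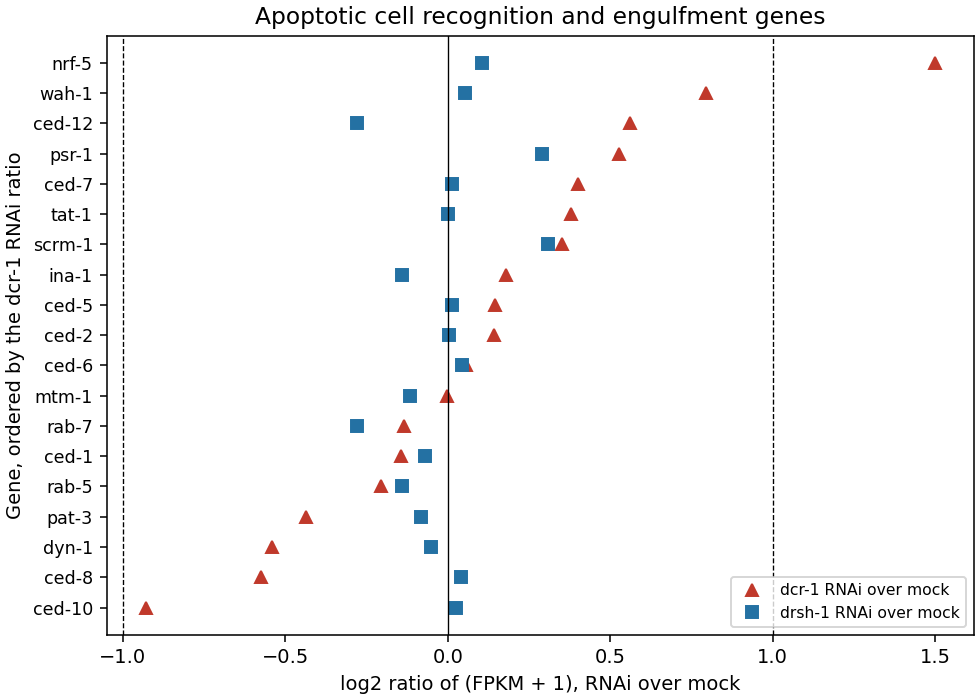
Log2 ratio of (FPKM + 1) over mock for the 19 genes of apoptotic cell recognition and engulfment, with triangles for dcr-1 RNAi and squares for drsh-1 RNAi, and dashed lines at 2-fold. nrf-5 is the one gene past a dashed line, at 1.499 in dcr-1 RNAi, beside 0.11 in drsh-1 RNAi.

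Of 18 genes of oxidative stress defence, the setting in which TTR-33 acts, 12 were listed in the dcr-1 table and 14 in the drsh-1 table. In dcr-1 RNAi 1 was 2-fold higher or more and 1 lower by as much, and in drsh-1 RNAi 0 were apart. Each count in dcr-1 RNAi is 8.33% of 12 genes, near the 6.71% and 6.53% of all genes. The glutathione S-transferase gene gst-4 was at 41.3 FPKM in dcr-1 RNAi, 19.7 FPKM in drsh-1 RNAi and 13.7 FPKM in mock (log2 ratios 1.53 and 0.50). The catalase gene ctl-3 was at 3.82, 8.57 and 9.58 FPKM in dcr-1 RNAi, drsh-1 RNAi and mock (-1.13 and -0.15). Of 7 dopaminergic neuron genes, bas-1 was the only one listed. It encodes an aromatic amino acid decarboxylase that serotonergic neurons also use, and was at 19.4, 6.82 and 4.66 FPKM (1.85 and 0.47).

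The ttr genes were set beside other families of secreted proteins chosen by name. Their share of high members in dcr-1 RNAi was below that of the collagens and near that of the nlp genes. At least 2-fold higher than mock were 9 of 42 ttr genes (21.4%) and 29 of 41 col genes (collagens of the cuticle, 70.7%). So were 6 of 54 clec genes (C-type lectins, 11.1%) and 7 of 35 nlp genes (neuropeptide-like proteins, 20%). The share of all genes was 6.71%. Lower by as much were 3 ttr, 1 col, 4 clec and 2 nlp genes, beside 6.53% of all genes. The medians were 0.27 for ttr, 1.90 for col, 0.11 for clec and -0.12 for nlp. In drsh-1 RNAi the counts higher were 2 of 42, 10 of 39, 1 of 64 and 0 of 36, beside 1.91% of all genes. The counts lower there were 1, 0, 4 and 2, beside 1.59%. The medians in drsh-1 RNAi were 0.03, 0.60, 0.08 and -0.16. Differences between families were not tested, and near-identical collagen genes can share reads.

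**Figure D5:**
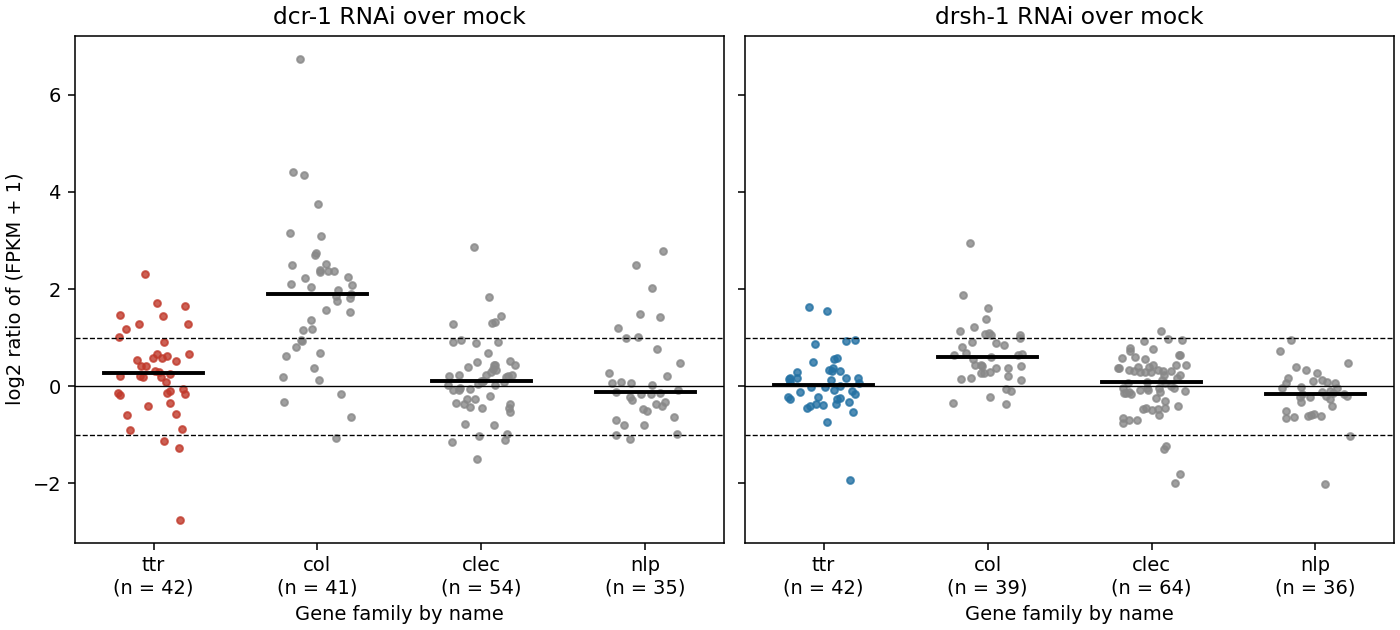
Log2 ratio of (FPKM + 1) over mock (vertical axis) of every listed ttr, col, clec and nlp gene, 1 point per gene with the median as a bar, in dcr-1 RNAi (left) and drsh-1 RNAi (right), and dashed lines at 2-fold. The col genes have the highest medians, 1.90 and 0.60, and the ttr medians are 0.27 and 0.03.

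Markers of several tissues differed between the libraries as well. Over all genes, 6.71% were at least 2-fold higher and 6.53% lower in dcr-1 RNAi, and 1.91% and 1.59% in drsh-1 RNAi. Of 11 listed body wall muscle markers, 7 were at least 2-fold higher and 0 lower in dcr-1 RNAi. There the 11 summed to 2597 FPKM against 1252 FPKM in mock. In drsh-1 RNAi 0 of 12 listed ones were 2-fold apart, and they summed to 1521 FPKM against 1294 FPKM in mock. The 6 listed of 12 epidermis markers summed to 3549.6 FPKM in dcr-1 RNAi against 415 FPKM in mock, nearly all of it from col-93 and col-19. These 2 were at least 2-fold higher in dcr-1 RNAi and 0 were lower. The median log2 ratio of the 6 was -0.06, with 3 above 0 and 3 below. In drsh-1 RNAi the 6 summed to 576 FPKM against 425 FPKM in mock, with 1 at least 2-fold higher (col-93) and 1 lower (lin-26). dpy-7, rol-6 and bli-1 were among the unlisted markers. The 10 listed of 12 intestine markers summed to 862 FPKM in dcr-1 RNAi, 1064 FPKM in drsh-1 RNAi and 1379.6 FPKM in mock. The order of these sums came from the protease gene cpr-1, at 181, 593 and 1030.4 FPKM. asp-1 followed the same order at lower values, with 6.54, 16.5 and 25.2 FPKM. The 9 markers other than cpr-1 summed to 682 FPKM in dcr-1 RNAi, 471 FPKM in drsh-1 RNAi and 349 FPKM in mock. Of the 10 markers, 2 were at least 2-fold higher in dcr-1 RNAi (act-5 and mtl-2) and 3 lower (cpr-1, asp-1 and ges-1). In drsh-1 RNAi 0 were apart. Sums were closer together for neurons (468 FPKM in dcr-1 RNAi against 480.5 FPKM in mock), pharynx (82.1 against 79.2 FPKM) and germ line (2362 against 2540.2 FPKM). In the drsh-1 table the neuron markers summed to 448 FPKM in drsh-1 RNAi against 486 FPKM in mock, those of pharynx to 66.6 against 79.2 FPKM and those of germ line to 2745 against 2540.2 FPKM. Of 14 sperm markers, 3 were listed in the dcr-1 table and summed to 19.6 FPKM in dcr-1 RNAi against 9.72 FPKM in mock, and 2 in the drsh-1 table, at 8.01 FPKM in drsh-1 RNAi against 7.51 FPKM in mock. Of 9 glia markers, 2 were listed in the dcr-1 table and summed to 25.8 FPKM in dcr-1 RNAi against 27.9 FPKM in mock, and 1 in the drsh-1 table, lin-26, which the epidermis list also holds, at 8.90 FPKM in drsh-1 RNAi against 24.8 FPKM in mock. In RNA of whole animals, more cells of a type and more RNA per cell cannot be told apart, and the part of these differences in the ttr values was not tested.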

How the data were processed

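The FPKM values and log2 ratios used here are the authors' own, deposited as 2 tables without header lines, one for dcr-1 and one for drsh-1, each holding gene names, mock FPKM, FPKM after RNAi and their log2 ratio. Per the submitters' processing notes, the tools were TopHat2 2.06, Cufflinks, Cuffdiff 2.1.1, SAMtools and CASAVA 1.8.2, whose roles are not stated. The genome build, the annotation and the scaling between libraries are not given in the sources used here. The RNAi library was taken from each table's name, and mock as the column both tables share. Ratios were recomputed with a pseudocount of 1 FPKM over all genes of each table, which returned the deposited log2 values to within 5.0e-12, in Python 3.11.15 with pandas 2.3.3. The ratio code was tested on simulated data. Counts of genes past 2-fold or 1.5-fold describe size only. dcr-1 RNAi and drsh-1 RNAi were compared directly over genes with equal mock values. No test was possible with 1 library per group, and without read counts the precision is unknown. Named are members with a described role and those at least 2-fold from mock. The 5 highest and 5 lowest members of each comparison and of mock level are named too. So are genes of the lists at least 2-fold from mock, except markers of tissues. These are given mostly by their sums, with counts past 2-fold for muscle, epidermis, intestine, neurons, pharynx and germ line. The members and gene lists were chosen with earlier results of these data known. Overlaps and neighbours come from the Ensembl WBcel235 annotation. Protein and promoter sequences were not used here.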

Additional observations from a re-analysis of the deposited data

How the results depend on the processing

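Alternatives were a pseudocount of 0.1 or 5 FPKM, a mean of at least 5 FPKM, centring on the median ratio, a common upper quartile, and genes with equal mock values. All 42 members had equal mock values, so the last setting could not change their counts or medians. A mean of at least 5 FPKM left 41 members in dcr-1 RNAi against mock and 40 in drsh-1 RNAi against mock. It removed none past 2-fold. Centring lowered log2 ratios by 0.0596 in dcr-1 RNAi and by 0.0019 in drsh-1 RNAi. Leaving out members whose exons overlap another gene was added after the data were seen. The other settings kept all members or those of at least 5 FPKM. Under them, in dcr-1 RNAi against mock, 7 to 9 ttr genes were at least 2-fold higher, beside 4.25% to 7.73% of all genes. The count lower was 2 or 3, beside 4.23% to 7.57% of all genes, and the median log2 ratio was 0.20 to 0.29. Among single genes past 2-fold there, ttr-16, ttr-24 and ttr-39 passed under it in at least 1 alternative, with values nearest 0 of 0.81, 0.95 and -0.71. In drsh-1 RNAi against mock the counts stayed at 2 and 1 under the same settings, beside 0.99% to 2.32% and 0.89% to 2.03% of all genes. Without overlapping members, 29 remained. The count lower in dcr-1 RNAi was then 1, beside 6.52% of all genes, and the count higher in drsh-1 RNAi was 1, beside 1.9%. The median log2 ratio in drsh-1 RNAi was -0.02 where all 42 gave 0.03. With dcr-1 RNAi set directly against drsh-1 RNAi, the count higher was 7 with a pseudocount of 0.1 FPKM, beside 5.24% of all genes. It was 1 with one of 5 FPKM, beside 2.76%, and 3 of 29 without overlapping members, beside 4.29% of all 9043 genes with none left out. The count lower was 1, 0 and 0 in these, beside 6.58%, 3.49% and, with none left out, 5.78% of all genes. It was 2 after centring or with a common upper quartile, beside 6.45% and 6.38%. The members left out for overlaps include ttr-39 and ttr-44, counted as lower in dcr-1 RNAi, and ttr-16, counted as higher in both RNAi libraries. The cause of the changes under the alternatives was not tested. No member past 2-fold changed sign. No paired analysis was possible because each group had 1 library. Depth is unknown, and the 2 FPKM limit hides falls of low genes and rises of genes under that level in mock.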
